A study of Saccharomyces cerevisiae with 4 samples.

Results

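The leaders of yeast messenger RNAs, the stretches between the capped 5′ end and the start codon, were measured at single-base resolution from counts of capped 5′ ends. For each of 6002 nuclear protein-coding genes of the R64-1-1 annotation, the 250 bases before the annotated start codon were searched for 5′ ends on the sense strand, and bases inside another gene of the same strand were left out. The leaders described here were selected on these counts and belong to the 3647 genes (60.8%) with at least 10 of them in each of 4 libraries, so the number of counts is described below and not used as evidence, whereas the position of the counts within the window was not part of the choice. For each gene and library, leader length was the median distance of the counts from the start codon, in bases, and the main start was the position with the most counts. The spread of starts was the width from the 10th to the 90th percentile of the counts.

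The 4 libraries came from 2 strains with 2 libraries each, prepared from cultures in mid-log phase in YPD at 30 °C. Both strains were BY4741, mating type a, and both carried the same deletions in HIS3, LEU2, URA3 and MET15 per the labels. One was the wild type and the other, *set2*Δ, also lacked SET2, which encodes the histone methyltransferase that modifies lysine 36 of histone H3. The labels do not say whether the 2 libraries of a strain came from separate cultures, so tests here measure the spread between these libraries, which may be technical. The BY4741 libraries held 452888 and 375442 counts and the *set2*Δ libraries 1267578 and 1099482, and member leaders took 74.1% and 76.4% of the counts in BY4741 but 59.0% and 61.4% in *set2*Δ. SET2 itself had 9 and 2 counts within its coding sequence in BY4741 against 0 and 1 in *set2*Δ. Its leader kept counts in both strains, 22 and 11 in BY4741 against 13 and 11 in *set2*Δ, so SET2 was itself a member. LEU2, URA3 and MET17 (the current name of MET15) had at most 1 leader count in any library, whereas HIS3 had 175, 136, 250 and 236 leader counts and 4, 3, 15 and 12 counts within its coding sequence. For mating type, the a-cell pheromone gene MFA1 had 277, 264, 418 and 338 leader counts against 2, 2, 3 and 12 for the alpha-cell gene MF(ALPHA)1.

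RNA polymerase II of budding yeast does not start at a fixed distance from the TATA element. Together with its initiation factors it scans downstream from the site of assembly and starts at favoured bases, so that most yeast genes are transcribed from several starts. The favoured starts are known to place a pyrimidine before the first transcribed base, a purine at that base and often an adenine a little further upstream. The leader that results is scanned by the small ribosomal subunit from the cap, which makes its length and any ATG within it matter for translation.

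The sequences below show this arrangement at main starts of genes whose leaders are described later. Each line holds 20 bases before the first transcribed base and 10 bases from it on, 5′ to 3′ on the strand of the gene. Capitals mark the first transcribed base, the base before it, and the base at position -8 where that is an A, with positions counted back from the first transcribed base. The first set, from the glycolytic genes TDH3 and PGK1, the proton pump gene PMA1 and the transcription factor gene HAC1, was chosen to show starts 39 to 236 bases before the start codon. Coordinates are those of R64.
TDH3, 39 bases before the start codon (chrVII:883840-883869, minus strand): ttttttagttttAaaacacCAagaacttag
PGK1, 40 bases before the start codon (chrIII:137686-137715, plus strand): tctcttttttacAgatcatCAaggaagtaa
HAC1, 66 bases before the start codon (chrVI:75093-75122, plus strand): cttgttttatttAaacttcCAaggctttaa
PMA1, 236 bases before the start codon (chrVII:482893-482922, minus strand): tctttctttcctAtaacacCAatagtgaaa
All 4 place a C before an A and an A at position -8.

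The second set shows a near and a far start of 3 genes that used both, namely SSA1 (an Hsp70 chaperone), TRP1 (an enzyme of tryptophan synthesis) and RNR4 (a subunit of ribonucleotide reductase).
SSA1, 62 bases (chrI:141484-141513, minus strand): tctctatttgtaAgataagCAcatcaaaag
SSA1, 247 bases (chrI:141669-141698, minus strand): ttctttttccagAacgttcCAtcggcggca
TRP1, 34 bases (chrIV:461788-461817, plus strand): tgactattgagcAcgtgagTAtacgtgatt
TRP1, 196 bases (chrIV:461626-461655, plus strand): tactttgcagttAtgacgcCAgatggcagt
RNR4, 27 bases (chrVII:856319-856348, minus strand): tttttgagccacAcaacccCGcgcaacgca
RNR4, 209 bases (chrVII:856501-856530, minus strand): ttttcgatcaaaAaaagacTAtcaatagat
Near and far starts alike carried a pyrimidine before a purine and an A at position -8.

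Of the 3647 main starts, taken over the 4 libraries together, 3578 (98.1%) had a pyrimidine before a purine, against 22.9% of all 894486 counted bases of the same windows. An A at position -8 was found at 2733 main starts (74.9%) and at 33% of all bases. Both features were present at 2683 main starts (73.6%), against 7.74% of all bases. CA was the pair at 45.6% of main starts, TA at 28.6%, TG at 14.8% and CG at 9.10%. Minus-strand positions had been placed by this very feature. On the plus strand, where nothing was moved, 80.8% to 85.0% of well used positions had a pyrimidine before a purine in the different libraries. Of all positions used, 58.6% and 60.0% in BY4741 and 50.6% and 51.9% in the deeper *set2*Δ libraries had the pair, and 74.8% and 75.3% of all leader counts fell on a pyrimidine-purine pair in BY4741, against 70.4% and 71.5% in *set2*Δ. Among 135 genes with near-equal counts in both strains (the higher mean at most 25% above the lower) the shares were 65.22% and 65.09% in BY4741 against 64.02% and 65.08% in *set2*Δ. The strains did not overlap, but replicate 2 of each nearly coincided.

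The TATA element, the binding site of the TATA-binding protein, was searched as TATAAA on either strand, so also as TTTATA, in the 81 bases from 120 to 40 bases before the main start. It was found before 681 main starts (18.7%) and in 18.04% of the same windows of all 5520 genes with a leader count. When the 81 bases were moved 150 bases further upstream, 13.4% of the members held the motif. Members with and without it had much the same median spread of starts, 46 and 46.5 bases.

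Leaders were short. Over the members, leader length (the mean of the 4 libraries) had a median of 44 bases, with the middle 50% between 30 and 72 bases. A leader of 20 to 100 bases was measured for 2843 members (78.0%), one under 20 bases for 293 (8.03%) and one over 100 bases for 511 (14.01%). Leaders over 200 bases were found for 72 members and under 10 bases for 33. The window set an upper limit, and 17 members had more than 50% of their counts within 500 bases lying beyond base 250. The genes just inside the count minimum (244 genes with 10 to 12 counts in their poorest library) had a median leader of 47.9 bases and those just outside it (340 genes with 7 to 9 counts) 65.1 bases.

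**Figure D1:**
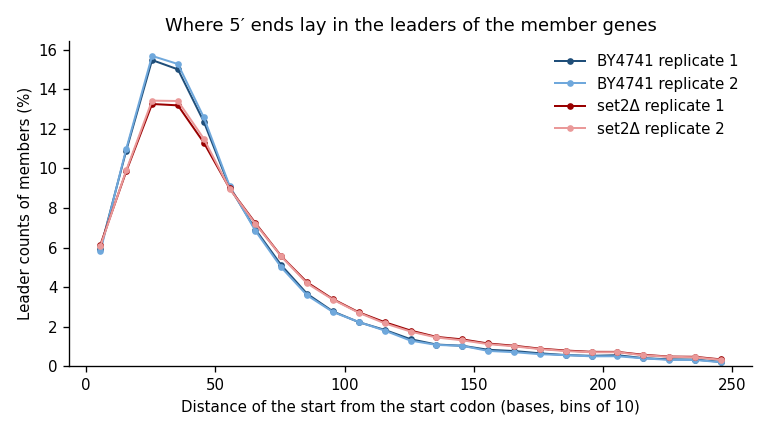
Share of member leader counts (vertical axis, %) in bins of 10 bases by distance from the start codon (horizontal axis, bases), with 1 line for each of the 4 libraries. The BY4741 lines lie above the *set2*Δ lines near 30 to 40 bases and below them beyond about 70 bases, and between 26 and 50 bases the libraries held 35.2%, 35.8%, 31.3% and 31.8% of their counts.

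Median leader length over the members was 43 bases in both BY4741 libraries and 45 in both *set2*Δ libraries, and the strains did not overlap. The exact permutation test of 2 against 2 libraries gave a two-sided p of 0.333, the smallest this design allows. The median distance of the main start was 42 and 41 bases in BY4741 against 42 and 42 bases in *set2*Δ, and the strains overlapped. Counts more than 100 and up to 150 bases away made up 7.57% and 7.45% of the leader counts in BY4741 against 9.603% and 9.40% in *set2*Δ, and counts more than 200 bases away 1.88%, 1.76%, 2.62% and 2.53%. The far end of the window thus held a larger share of the counts in the *set2*Δ libraries. Per gene, median length was longer in *set2*Δ for 2032 members, shorter for 942 and equal for 673, and for 2908 members (79.7%) it changed by at most 5 bases.

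Leader length differed between groups of genes by function. Cytoplasmic ribosomal protein genes had short leaders, with a median of 34.9 bases over 122 members and a range from 7.75 bases at RPS26A to 73 bases. The 18 aminoacyl-tRNA synthetase genes, which charge tRNAs, had a median of 35 bases, the 10 histone genes 36.4 bases, the 61 mitochondrial ribosomal protein genes 40.3 bases and the 32 proteasome genes 42.1 bases. Glycolysis and fermentation genes (17 of 20 listed were members) had a median of 41.3 bases, and their longest leader was that of PFK1, a phosphofructokinase subunit, at 229 bases. These groups lay below the median of 44 bases over all members.

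Longer medians were found for lists of regulators. Protein kinase genes (28 of 57 listed) had a median leader of 138 bases, and 16 of the 28 were over 100 bases, from 24.3 bases at KIN28, the kinase of TFIIH, to 237 bases at RIM15, a kinase of nutrient signalling. Transcription factor genes (22 of 54 listed) had a median of 78.3 bases, from 14.3 bases at INO4 to 203 bases at ECM22. Respiratory chain genes (31 members) had a median of 62.8 bases, heat shock chaperone genes (22 members) 59 bases and membrane transport genes (23 members) 57.8 bases. A list of genes of the COMPASS, Rpd3S and Set2 systems, which also held elongation factor genes such as SPT6 and SPT16, had 51.5 bases (21 members).

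**Figure D2:**
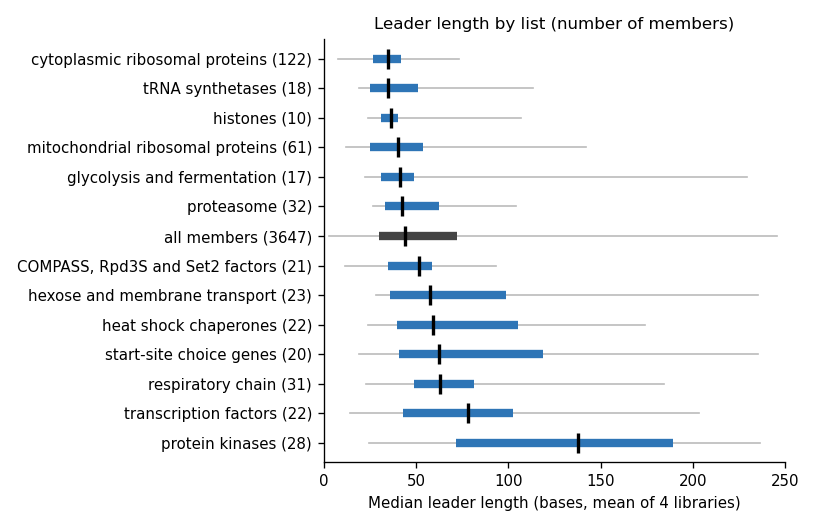
Leader length (horizontal axis, bases, mean of 4 libraries) of 13 gene lists and of all members, with the number of members in brackets; black ticks are medians, bars the middle 50% and thin lines the shortest to the longest. The protein kinase list has the highest median, 138 bases, and the cytoplasmic ribosomal protein list the lowest, 34.9 bases, against 44 bases for all members.

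Among the 874 members with 100 or more counts in every library, the shortest leader was that of RDL1 (YOR285W), a sulfurtransferase, at 11 and 9 bases in BY4741 against 11 and 9 in *set2*Δ. GCV3, the H protein of glycine cleavage, had 12 and 12 bases in BY4741 against 12 and 13 in *set2*Δ. SDD2 had 13, 13, 14 and 14 bases in the same order. Neither RDL1 nor GCV3 separated the strains. ATS1 had 12 and 12 bases in BY4741 against 17 and 15 in *set2*Δ, and BOL1, a mitochondrial iron-sulfur cluster protein, 12 and 12 against 18 and 14.

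At the other end, CTS1, the endochitinase that separates daughter cells, had leaders of 230 and 228 bases in BY4741 against 230 and 230 in *set2*Δ. PFK1 had 233 and 233 bases in BY4741 against 226 and 225 in *set2*Δ, and SRL1, a cell wall mannoprotein, had 225 bases in every library. YNL190W had 222 and 222 against 221 and 222 bases, and RHO1, a GTPase of cell wall synthesis, 213 and 213 against 211 and 211. PFK1 was the one of these 5 genes that passed the shift test described below, with a log2 change of -0.91 ± 0.19 (SE, adjusted p = 0.011 by edgeR), and over 150 bases in place of 250 the sign of its change turned.

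ATG was rare in leaders. Of the members, 389 (10.7%) had at least 1 ATG between the main start and the start codon, whereas 1576 (43.2%) had one in the stretch of the same length just upstream of the main start. For the 535 members with a main start at 100 bases or more the numbers were 118 (22.1%) in the leader and 444 (83.0%) upstream. For main starts at 45 to 99 bases they were 12.8% and 59.1%, and at 20 to 44 bases 6.805% and 26.9%. CPA1, an arginine synthesis gene whose short upstream reading frame is known to control it, had 1 ATG, 134 bases before the start codon, in a leader with its main start at 243 bases. YAP1, an oxidative stress transcription factor, had 1 ATG at 85 bases with a main start at 162 bases.

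Counts at single positions were unevenly distributed. Positions with 14 to 18 counts held 21.7% and 20.8% of the member leader counts in BY4741 against 32.5% and 30.1% in *set2*Δ. The count at the main start was between 14 and 18 for 33.1% and 28.5% of members in BY4741 but for 60.5% and 53.9% in *set2*Δ, with medians of 13, 11, 17 and 17. Counts per position thus piled up near 16 in all 4 libraries, most in the deeper ones, although some positions went far beyond. At TDH3, for example, the main start had 143 and 152 counts in BY4741 against 85 and 105 in *set2*Δ. Shares at strong starts are given below also for genes of like counts in both strains.

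Starts were spread over 41 and 40 bases in BY4741 and over 52 and 51 bases in *set2*Δ (medians of the 10th to 90th percentile width over the members), and the main start held 19.05% and 20.3% of the counts in BY4741 against 10.5% and 11.7% in *set2*Δ. Neither measure overlapped between strains (exact permutation test, two-sided, p = 0.333 for both, the smallest possible). Among 10 counts drawn from a gene, the expected number of different positions was 7.21 and 7.07 in BY4741 against 8.08 and 7.96 in *set2*Δ. Within classes of like counts the strains lay closer in the main start's share, but each class held different genes in each library (1010, 900, 430 and 590 genes with 40 to 79 counts). With 20 to 39 counts (868, 911, 59 and 113 genes) the shares were 27.0% and 25.9% in BY4741 against 29.0% and 27.6% in *set2*Δ. The widths in that class were 40 and 38 against 50 and 52 bases. Among genes with 40 to 79 counts in a library, the main start held 21.4%, 21.4%, 21.1% and 21.0% in BY4741 replicates 1 and 2 and *set2*Δ replicates 1 and 2, and the width was 39, 39, 45 and 43 bases. With 100 to 199 counts the shares were 12.6%, 12.6%, 11.4% and 11.7% and the widths 44, 43, 50 and 49 bases. The 135 genes with near-equal counts in both strains had widths of 41 and 39 against 48 and 46 bases. The difference in the main start's share, -8.58 percentage points over all members, was thus much smaller within these classes. It had the other sign at 20 to 39 counts, and it was -1.69 for the 135 genes. With the same 3583 genes in every library and *set2*Δ counts thinned to BY4741 depth, it was -6.38 percentage points. Thinning lowered all *set2*Δ counts alike, including those already piled up at strong starts, so it could not restore the height of those starts. After it the 2 *set2*Δ libraries shared the main start for 28.0% of these genes, against 62.1% for the 2 BY4741 libraries. The part of depth in the difference was thus not tested by thinning. The width stayed larger in *set2*Δ in all of these comparisons, by 10.5 bases after thinning.

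**Figure D3:**
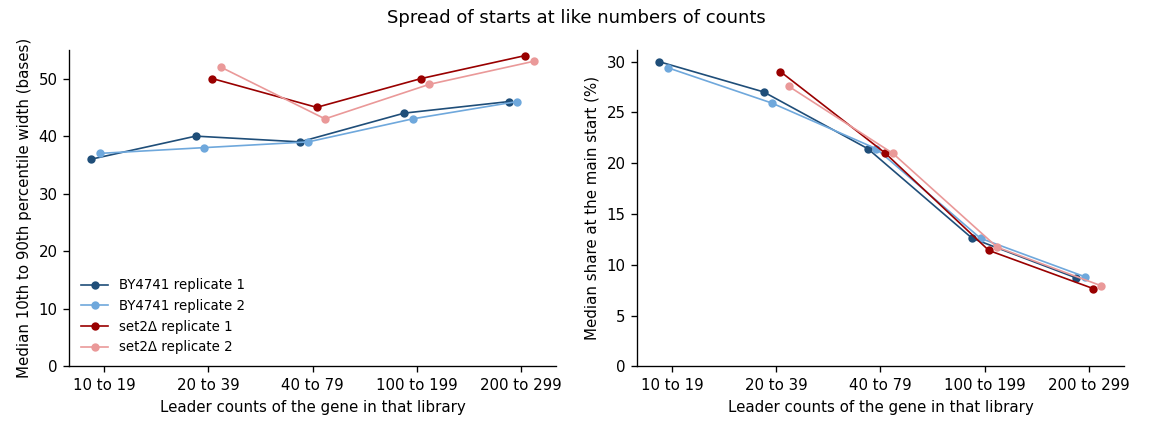
Median width of starts in bases (left) and median share of counts at the main start in % (right) of the genes whose leader counts in a library fell in each class on the horizontal axis, with 1 line for each library. Widths of *set2*Δ lie above those of BY4741 in every class shown for both strains, whereas the shares at 40 to 79 counts, 21.4%, 21.4%, 21.1% and 21.0%, nearly coincide.

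The narrowest leader starts among members with 100 or more counts in every library were those of RPS9A, a ribosomal protein gene, with widths of 11 and 12 bases in BY4741 against 18 and 17 in *set2*Δ, and PIR1, a cell wall protein gene, with 16 and 9 against 21 and 20. RPL39 had 11 and 11 against 22 and 23 bases. RPS9A and RPL39 carry an intron 7 and 6 coding bases after the start codon. The aligned reads were 42 bases long, so reads that start within the reach of such an intron cross a splice junction, and whether those were aligned is not given in the sources used here. The widest were RNR4, SSA1, TRP1, SNL1 and YHM2, with widths of 154 bases or more in every library.

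Main starts were not always the same base in different libraries. Counts at strong starts often lay close together, and ties went to the base nearest the start codon. In *set2*Δ replicate 1, for example, TRP1 had 17 counts at base 34 and 16 at bases 24, 186, 189, 196 and 231. The part of such near ties in the differences below was not tested. The 2 BY4741 libraries shared the main start for 2263 members (62.1%) and the 2 *set2*Δ libraries for 2162 (59.3%), while the 4 pairs of libraries of different strains shared it for 53.9% to 57.0%. In 1248 members (34.2%) all 4 libraries had the same main start, and in 1715 (47.0%) all 4 lay within 5 bases. Between pairs of libraries 9.73% to 12.8% of members had main starts more than 20 bases apart. The main start was the same within each strain for 1477 members, and of these 229 had a different one in the other strain, farther from the start codon in *set2*Δ for 118 and nearer for 111, by a median of 10 bases.

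To compare the position of starts between strains gene by gene, each leader was divided at the base that halved its counts, averaged over libraries, into a near and a far part. The change of the far-to-near ratio in *set2*Δ over BY4741 was tested with edgeR's quasi-likelihood test on the counts of both parts, and calls are at an adjusted p below 0.1 (Benjamini-Hochberg). Of the 3647 members, 303 (8.31%) shifted toward longer leaders in *set2*Δ, where 6.13% of all 5108 tested genes did, and 74 (2.03%) toward shorter leaders, where 1.57% of all did, 7.69% of all tested genes being called in either direction. The shares of the members lay near those of all genes. The *set2*Δ libraries were also the deeper ones, in which counts piled up most at strong starts, and the part of this in the shifts was not tested. Without positions of 8 or more counts, edgeR called 9 members longer and 1 shorter (331 and 60 at an unadjusted p under 0.05). With counts capped at 8 per position it called 230 and 54. The shifts were small: the median change in leader length was 6 bases for the 303 members and -6 bases for the 74, and 34 and 5 of them changed by more than 20 bases. For 205 of the 303 (67.7%) and 54 of the 74 (73.0%) the main start was the same base in both strains, as it was for 63.9% of the 3270 members without a call.

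Short leaders were called longer more often and long leaders shorter. Of 293 leaders under 20 bases, 34 were called longer and 2 shorter. Of 961 leaders of 30 to 44 bases, 95 and 16 were, and of 294 leaders of 100 to 149 bases, 16 and 9. Of 221 leaders of 150 bases or more, 2 were called longer and 13 shorter. The median change of the mean start distance went from 3.01 bases in the shortest class to -2.97 bases in the longest. The window ends at the start codon and at base 250, so that starts of the shortest class had more room to lie farther from the codon and those of the longest to lie nearer. Of the counts within 500 bases, 1.34% and 1.18% in BY4741 against 2.26% and 2.08% in *set2*Δ lay beyond base 250, and the part of these bounds in the trend was not tested. The number of calls depended on the test. The median log2 change of all tested genes was 0.16, and when scaling removed a change common to most genes, edgeR called 111 members longer and 139 shorter (123 and 124 with DESeq2 size factors), while the test of DESeq2 on the same counts called 1, SSA1, and 2, RPL43A and RPS17B. With each used position counted once, edgeR called 0 members in either direction (120 longer and 14 shorter at an unadjusted p under 0.05), and it called 0 without either *set2*Δ library (377 longer and 103 shorter without replicate 1 at an unadjusted p under 0.05, 406 and 124 without replicate 2).

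Named genes were the 8 with the largest change in each direction among called members with at least 40 leader counts in every library and far shares that did not overlap between strains. The largest change toward longer leaders was that of CAB1 (YDR531W), the pantothenate kinase of coenzyme A synthesis, which had 41 and 48 leader counts in BY4741 against 163 and 130 in *set2*Δ. The far part held 22.0% and 33.3% of them in BY4741 against 63.2% and 54.6% in *set2*Δ, a log2 change of 1.90 ± 0.31 (SE, adjusted p = 0.0011 by edgeR). Its leader length went from 53 and 53 to 61 and 60 bases. The main start, 53 bases before the start codon in the 4 libraries together, had 12, 14, 17 and 16 counts, hence nearly level counts in libraries of unequal depth.

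SSA1 (YAL005C) had the widest change in bases among these 8 genes. Its leader length was 66 and 63 bases in BY4741 against 154 and 216 bases in *set2*Δ, and the log2 change was 1.52 ± 0.16 (SE, adjusted p = 6.9e-06 by edgeR). The group of starts 51 to 100 bases before the start codon had 112 and 114 counts in BY4741 against 122 and 106 in *set2*Δ. The group more than 200 bases before it had 35 and 32 counts in BY4741 (19.4% and 17.4%) and 139 and 161 in *set2*Δ (48.1% and 57.3%). The near group thus held about the same number of counts in all 4 libraries, and the far group held more in the deeper *set2*Δ libraries. The start at 62 bases, printed above, had 19, 17, 17 and 20 counts, and the start at 247 bases 8 and 4 in BY4741 against 18 and 18 in *set2*Δ. The gene upstream lies on the opposite strand, 742 bases away.

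FMP32 had leader lengths of 30 and 27 bases in BY4741 against 53 and 40 in *set2*Δ (1.72 ± 0.22, adjusted p = 7.9e-05 by edgeR), and 81, 58, 257 and 258 counts. DLD3, a D-lactate dehydrogenase, went from 36 and 36 to 52 and 52 bases (1.65 ± 0.22, adjusted p = 0.00014 by edgeR). TFB5, a subunit of the transcription factor TFIIH, went from 33 and 33 to 42 and 42 bases (1.56 ± 0.22, adjusted p = 0.00035 by edgeR). In all 3 genes the strains were apart in leader length, and their main starts had at most 18 counts in any library. With minus-strand positions as deposited, the sign of TFB5 turned. INM2, an inositol monophosphatase, VPS75, a histone chaperone with an intron 32 coding bases after the start codon, and YIL108W completed the 8, at log2 changes of 1.45 to 1.5.

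**Figure D4:**
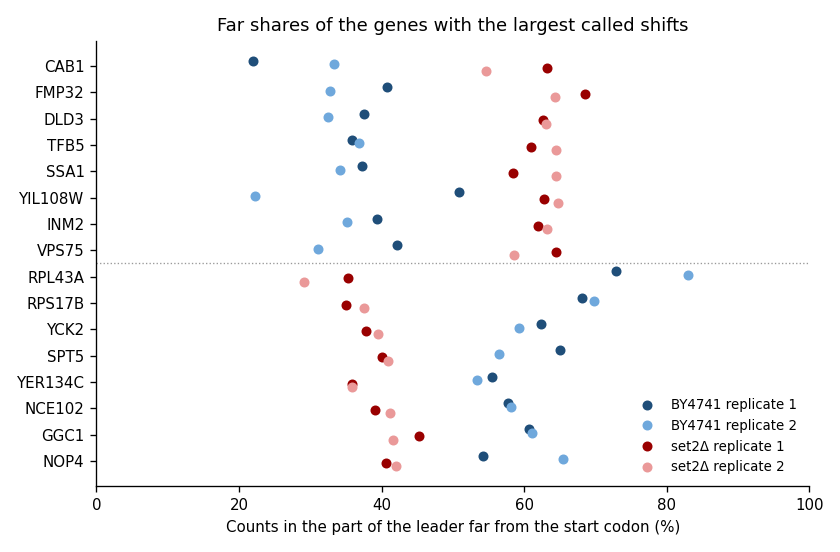
Share of leader counts in the far part (horizontal axis, %) in each of the 4 libraries (points) for the 16 genes with the largest called shifts, 8 toward longer leaders above the dotted line and 8 toward shorter ones below it. For SSA1 the shares were 37.2% and 34.2% in BY4741 against 58.5% and 64.4% in *set2*Δ, and for RPL43A 72.9% and 82.9% against 35.3% and 29.1%.

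Toward shorter leaders, the largest changes were those of 2 ribosomal protein genes with an intron just after the start codon. RPL43A (YPR043W) had leaders of 37 and 37 bases in BY4741 against 28 and 28 in *set2*Δ, with 70, 41, 249 and 213 counts (-2.76 ± 0.27, adjusted p = 4.6e-06 by edgeR). Its start at 37 bases had 17 and 14 counts in BY4741 against 20 and 17 in *set2*Δ, while the start at 21 bases had 3 and 1 against 15 and 15. The near start had more counts in both *set2*Δ libraries, and the far start about as many as in BY4741. Both are shown as examples. The added counts were spread over many near starts, and within 50 bases RPL43A had 41 and 26 counts in BY4741 against 194 and 177 in *set2*Δ.
RPL43A, 37 bases (chrXVI:654109-654138, plus strand): cgcctttttttagttcagaCAgtagtagca
RPL43A, 21 bases (chrXVI:654125-654154, plus strand): agacagtagtagcaaacaaCAggaagacaa
Both place a C before an A and neither has an A at position -8. RPS17B went from 39 and 39 to 35 and 35 bases (-1.96 ± 0.19, adjusted p = 4.6e-06 by edgeR). The first exons of the 2 genes hold 2 and 3 coding bases, and reads from starts within 42 bases of the junction would cross it. Whether splicing or its efficiency differed between the strains at these genes was not tested.

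SPT5, a transcription elongation factor, went from 38 and 38 bases in BY4741 to 30 and 30 in *set2*Δ (-1.23 ± 0.23, adjusted p = 0.0052 by edgeR). NCE102, a protein of the plasma membrane eisosomes, had leaders of 178 and 178 bases against 168 and 168 (-1.04 ± 0.13, adjusted p = 7.9e-05 by edgeR). Its main start, at 183 bases, had 32 and 33 counts in BY4741 against 33 and 32 in *set2*Δ, although its leader counts went from 187 and 179 to 450 and 381. The count at the strongest start thus differed by at most 1 between libraries of unequal depth. YCK2, a casein kinase of the plasma membrane, went from 224 and 222 to 214 and 214 bases (-1.31 ± 0.21, adjusted p = 0.0014 by edgeR). YER134C, GGC1, the mitochondrial GTP/GDP carrier, and NOP4, a nucleolar protein of ribosome assembly, completed the 8, at log2 changes of -1.09 to -0.99. The sign turned for NCE102 over 150 bases, for NOP4 with distinct positions or without highly counted positions, and for YER134C with minus-strand positions as deposited.

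Genes with 2 separate groups of starts kept both in every library. RNR4 had 53.0% and 46.6% of its counts within 50 bases in BY4741, against 47.9% and 50.6% in *set2*Δ, and 41.9%, 47.1%, 40.3% and 40.5% beyond 200 bases. Because the groups were nearly equal, its median jumped between them, from 42 to 197 bases within BY4741 and from 63 to 42 within *set2*Δ, and the shift test gave 0.04 ± 0.14 (adjusted p = 0.95 by edgeR). TRP1 had 50.0% and 50.4% of its counts within 50 bases in BY4741, against 30.5% and 30.3% in *set2*Δ, and 40.7%, 42.1%, 40.7% and 42.4% between 150 and 200 bases (0.72 ± 0.15, adjusted p = 0.016 by edgeR). Beyond 200 bases TRP1 had 4.67% and 0.75% of its counts in BY4741 against 15.2% and 14.9% in *set2*Δ. The share between 150 and 200 bases was thus like in both strains, and the one beyond it was larger in *set2*Δ. MCM1, a MADS-box transcription factor, had 70.7% and 73.3% within 50 bases in BY4741, against 43.2% and 51.9% in *set2*Δ, and 17.1% and 20% against 40.5% and 34.4% between 100 and 150 bases (1.49 ± 0.31, adjusted p = 0.0076 by edgeR). Over 500 bases the sign of the MCM1 change turned.

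**Figure D5:**
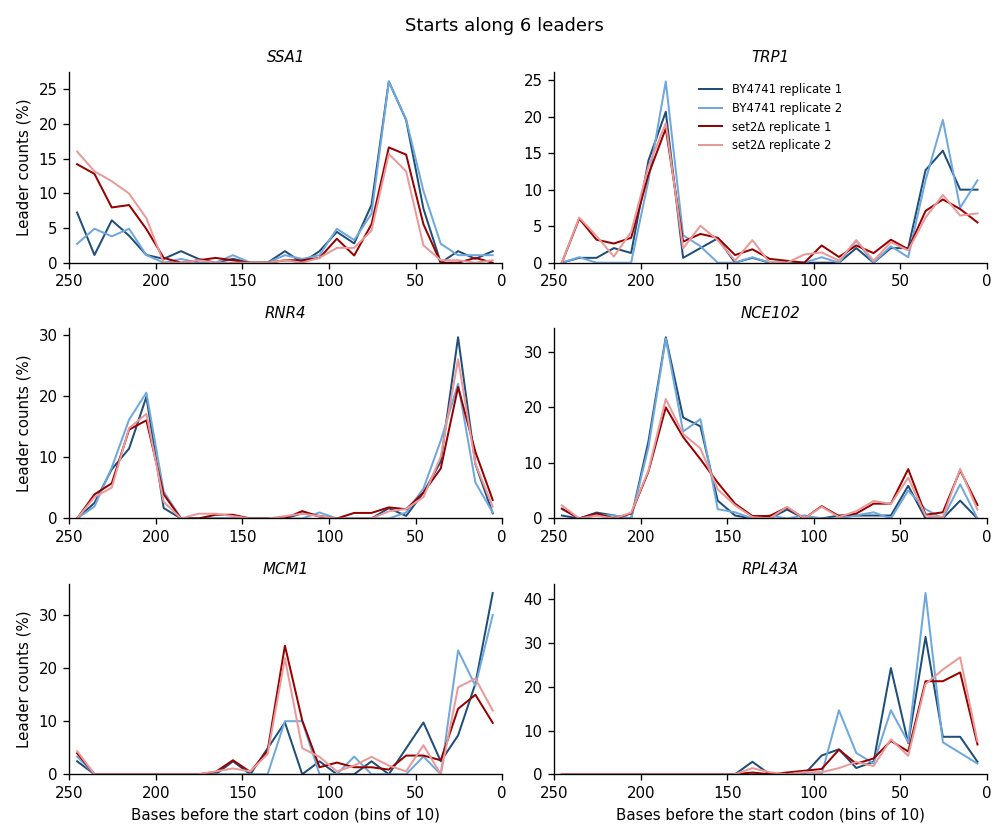
Share of a gene's leader counts (vertical axes, %) in bins of 10 bases by distance before the start codon (horizontal axes, bases, start codon at right) for 6 genes, with 1 line for each of the 4 libraries. SSA1, TRP1, RNR4 and MCM1 have 2 groups of starts, and the far group of SSA1, more than 200 bases before the start codon, held 19.4% and 17.4% in BY4741 against 48.1% and 57.3% in *set2*Δ.

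A list of genes known for their choice of start or their regulated leaders had 20 members of 28, with a median leader of 62.4 bases, and 2 of the 20 were called, both longer. One of them was ADH1. This gene of the main alcohol dehydrogenase had 661 and 744 leader counts in BY4741 against 979 and 765 in *set2*Δ with leaders of 38 and 38 against 39 and 38 bases, and passed the test at a log2 change of 0.50 ± 0.08 (adjusted p = 0.0011 by edgeR). Its leader length overlapped between the strains. Several well known leaders differed little: ACT1 (actin) had 120 and 121 bases against 121 and 121, HAC1 66 and 65 against 64 and 64, PMA1 236 and 236 against 234 and 235, TDH3 39 and 40 against 40 and 40, and HIS4 60 bases in every library. None of these 5 passed the test. HTS1, which encodes the mitochondrial and the cytoplasmic histidyl-tRNA synthetase from different starts, had its main start over the 4 libraries at base 1. Starts past the annotated start codon were not counted, so its values cover only starts before that codon. Their median distance was 6 and 5 bases in BY4741 against 36 and 32 in *set2*Δ on 25, 20, 90 and 69 counts. HTS1 did not pass either (adjusted p = 0.44 by edgeR). The 8 listed genes that were not members included GCN4, with 9, 6, 41 and 17 leader counts.

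The called leaders of the functional groups are given beside the shares over all members, 8.31% longer and 2.03% shorter. Of the cytoplasmic ribosomal protein genes, 14 of 122 were called longer and 8 shorter. All 8 lay among the 64 with an intron within 42 coding bases of the start codon (3 longer and 8 shorter), and of the 58 others edgeR called 11 longer and 0 shorter (0 shorter also at an unadjusted p under 0.05). Among heat shock chaperone genes 6 of 22 were called longer and 1 shorter, with a median log2 change of 0.43 against 0.17 over all members. Proteasome genes had 2 and 2 calls of 32, transcription factor genes 3 and 2 of 22, protein kinase genes 2 and 1 of 28, mitochondrial ribosomal protein genes 4 and 0 of 61 (9 and 3 at an unadjusted p under 0.05 by edgeR) and respiratory chain genes 0 and 1 of 31 (1 and 5 in the same way). Of 18 tRNA synthetase genes edgeR called 0 in either direction (2 longer and 0 shorter at an unadjusted p under 0.05). On the list with the COMPASS, Rpd3S and Set2 genes, SPT6, a histone chaperone that travels with RNA polymerase II, was the 1 called of 21. It had leaders of 56 and 53 bases in BY4741 against 63 and 63 in *set2*Δ (0.88 ± 0.19, adjusted p = 0.016 by edgeR), and its sign turned without highly counted positions.

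Among other called members, QCR6, a subunit of the cytochrome bc1 complex, had leaders of 106 and 106 bases in BY4741 against 84 and 77 in *set2*Δ (-0.74 ± 0.15, adjusted p = 0.012 by edgeR). The hexose transporter genes HXT4 and HXT7 were called in opposite directions. HXT4 had leaders of 75 and 75 against 73 and 75 bases, with 82.4% and 82.6% of its counts in the far part in BY4741 against 45.4% and 54.5% in *set2*Δ, on 17, 23, 119 and 77 counts. HXT7 had 86 and 86 against 91 and 91 bases on 22, 21, 81 and 60 counts. HXT7 shares long stretches of sequence with its neighbour HXT6, and reads with several alignments had been removed, so its counts are uncertain.

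The number of leader counts, which the choice of genes had used, is given as a description. Of the members, 846 (23.2%) were called higher and 1518 (41.6%) lower in *set2*Δ at an adjusted p below 0.1 (edgeR, TMM normalisation), against 33.6% and 30.3% of all 5108 tested genes. The classes that follow were formed on the BY4741 counts, which also enter the change, so an inverse trend is partly fixed by their choice. Of 780 members with a mean of 10 to 24 counts in BY4741, 392 were called higher and 50 lower, and of 324 members with 200 or more, 1 was called higher and 315 lower. The median log2 change went from 0.50 in the first class to -0.999 in the last. Less RNA per cell and fewer counted ends per RNA cannot be told apart here, and the part of the pile-up near 16 counts per position was not tested. Without positions of 8 or more counts, 494 members were called higher and 1068 lower.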

How the data were processed

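Capped 5′ ends were mapped in 4 libraries. Total RNA was dephosphorylated, decapped, ligated to an oligonucleotide with a random barcode of 8 nt, poly(A)-selected and reverse transcribed from random hexamers, and 50 nt were read from both ends. Per the paper, the authors aligned the reads to R64-1-1 with Novoalign and removed reads with several alignments or soft-clipped 5′ ends; the submitters' processing notes also name CASAVA 1.8.2. The authors deposited counts, the whole number of 5′ ends per base and strand, without normalization. Whether reads with the same barcode were collapsed is not given in the sources used here, and counts per position piled up near 16. Intervals and SE cover the libraries measured, at totals of 375442 to 1267578 counts. Each SE was the absolute log2 change divided by the square root of the F statistic of the same edgeR test.

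Here, minus-strand positions were moved 42 bp to the right, since 77.0% to 78.8% of well used minus-strand positions then had a pyrimidine before a purine, against 23.4% to 23.8% as deposited. Genes and sequences came from the R64 annotation of RefSeq. The main start of a gene over the 4 libraries was the position with the highest mean share of counts. Genes with at least 10 leader counts over the 4 libraries were tested with edgeR 4.0.16 (quasi-likelihood, adjusted p below 0.1 by Benjamini-Hochberg; the part-by-strain interaction for shifts, TMM for leader counts) in R 4.3.3; DESeq2 1.42.0 and limma 3.58.1 served as alternatives. Library medians were compared with exact permutation tests (scipy 1.17.1, Python 3.11.15, numpy 2.4.6, pandas 2.3.3). Plots used matplotlib 3.10.9. The fits were tested on simulated data. Named genes were the shortest, longest and, up to 5, the called members of each list, the largest shifts and the narrowest and widest well counted leaders, and the start-choice list. Members, lists and tests were chosen with earlier results of these data known. The alternatives were other windows, filters, scalings and tests, thinning, caps on counts per position, a replicate block and each library left out. The result of 1 called gene of the start-choice list is not reported here.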

Additional observations from a re-analysis of the deposited data

How the results depend on the processing

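The number of shift calls depended on the processing, while the direction of the called genes mostly did not, and the cause was not tested. Thinning and leaving out a library or positions also use fewer data, and thinning does not undo the pile-up of counts at single positions. For 303 members called longer and 74 shorter, the counts were 193 and 43 at an adjusted p of 0.05, 1 and 2 with the test of DESeq2 (111 and 28 at an unadjusted p under 0.05), 123 and 124 with DESeq2 size factors, 99 and 21 after thinning, 0 and 0 with distinct positions, 179 longer over 150 bases and 180 longer without bases within 300 past a same-strand gene. Other alternatives were chosen after seeing the data: a quasi-dispersion of at least 1 gave 147 and 31, TMM over both parts 111 and 139, and leaving out positions of 8 or more counts 9 and 1. Leaving out 1 library gave 0 to 99 longer and 0 to 25 shorter calls, with 0 and 0 without either *set2*Δ library (377 and 103, and 406 and 124, at an unadjusted p under 0.05). Replicate numbers did not pair the libraries (correlation of the deviations of far shares 0.0072), and a replicate block gave 309 and 76. The 303 and 74 calls all kept their direction under DESeq2, the block and each library left out. These settings refit the same near and far counts or part of them. The far shares of all 303 and 74 calls also did not overlap between strains, so a kept direction was nearly fixed in advance there. With distinct positions 288 and 58 kept their direction, and without positions of 8 or more counts 276 and 57. Leader counts were called higher for 321 members with DESeq2, 62 with distinct positions and 494 without positions of 8 or more counts, and lower for 568 with distinct positions, against 846 and 1518. The difference in median leader, *set2*Δ minus BY4741, was 2 bases and became 1 base over 150 bases, past same-strand genes, thinned or with 50 or more counts, 1.5 with minus-strand positions as deposited or near-equal counts (added after seeing the data, here and below), 4 with distinct positions and 5 without positions of 8 or more counts (1961 genes, added likewise). That of the main start was 0.5, -0.5 after thinning and 2 at near-equal counts. That of the mean start distance was 2.86, and 4.30 over 500 bases, 1.58 over 150, 3.59 as deposited, 5.82 with distinct positions, 5.26 without positions of 8 or more counts, 3.53 with counts capped at 8, 2.45 past same-strand genes, 2.64 with 50 or more counts and 2.58 at near-equal counts. The width difference of 11 bases was 9.5 over 150 bases, 17.5 with distinct positions, 13.5 capped, 14 without positions of 8 or more counts and 7 at near-equal counts. The difference in positions among 10 counts, 0.88, was 0.20 at near-equal counts and 0.26 without positions of 8 or more counts, and that in the share of the main start, -8.58 percentage points, was -6.38 thinned, -6.23 with 50 or more counts and -1.69 at near-equal counts. The share of main starts common to both strains, 55.7%, was 57.9% as deposited, 35.2% thinned, 53.3% with 50 or more counts and 62.2% at near-equal counts. Main starts have no meaning with distinct or capped counts or without the highest positions and are not given there. The log2 change turned for TFB5 (-0.49), YER134C (0.83) and RPN2 (1.68) with minus-strand positions as deposited, NCE102 (0.51) and PFK1 (1.28) over 150 bases, MCM1 (-0.26) over 500 bases, NOP4 (0.15), RPN2 (0.26) and QCR6 (0.067) with distinct positions, NOP4 (7.9e-05) and SPT6 (-0.0070) without positions of 8 or more counts, and CDC28 past same-strand genes (-1.61) and at a fixed division of 50 bases (-0.047). The window of 150 bases leaves out most starts of NCE102 and PFK1. Shallow BY4741 libraries limit what can be said of members near 10 counts.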
